A study of Mus musculus with 32 samples.

Results

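Intestinal stem cells that lack Cpt1a were compared with wild-type stem cells from mice on the same high-fat diet, gene by gene, to ask what loss of the enzyme does to the transcriptome under fat feeding. The 4 knockout (KO) libraries came from C57BL6 mice with the floxed alleles Cpt1afl/fl that carried Villin-CreER together with Lgr5-GFP-IRES-CreER. The 4 wild-type (WT) libraries came from mice of the same strain with Villin-CreER together with Lgr5-GFP-IRES-CreER, so both groups carried both transgenes, and what set them apart was the floxed Cpt1a allele. Villin-CreER is a Cre recombinase under a promoter active throughout the intestinal epithelium, active only once tamoxifen is given, and Lgr5-GFP-IRES-CreER marks Lgr5-expressing stem cells with GFP and carries the same type of Cre. The mice's ages are not given in the sources used here, nor is the interval after tamoxifen. The labels put 2 female and 2 male samples in each group. These 8 libraries are part of 32, and 12409 of the 50686 genes in the table had enough counts across the 16 stem cell libraries to be tested.

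Live EpCAM-positive cells with high Lgr5-eGFP and low or no CD24 were sorted, with cells bearing CD45, Ter119 or CD31 (white blood cells, red cells and endothelium) gated out, and polyA RNA was sequenced. Expression is given as counts per 1e6 (CPM) after TMM scaling, a scaling that makes libraries of different depth and composition comparable. It is based on the authors' estimated read counts per gene. Totals ran from 4449244 to 5781826 counts in KO and from 4362994 to 7281724 counts in WT libraries. Column names show a library's group and nothing on its replicate or sex. Letters a to d therefore stand for the 4 runs of 8 consecutive columns in which the libraries lie. Libraries a and b of both genotypes held 90.4 to 115 CPM of Xist and no Ddx3y, and libraries c and d held 61.4 to 74.2 CPM of Ddx3y. Nothing says that the libraries are separate mice, so the p-values measure the spread between libraries. Lgr5 itself stood at 315, 534, 391.8 and 359 CPM in KO libraries a to d, against 333, 548, 360 and 300 CPM in WT libraries a to d. The groups overlapped, and the estimated difference was small (log2 fold change 0.05 ± 0.17 SE, adjusted p = 0.997). The summed markers of white blood cells were at 9.29 to 14.1 CPM in KO and 10.7 to 14.01 CPM in WT libraries, and those of stroma, endothelium and red cells at 1.46 to 9.91 CPM in KO and 1.58 to 4.12 CPM in WT libraries. Both sums were close to 0 beside the stem cell markers, which summed to 17746 to 20643 CPM in KO and 18647 to 21719 CPM in WT libraries.

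Cpt1a is the liver-type carnitine palmitoyltransferase of the outer mitochondrial membrane. It joins long-chain fatty acids to carnitine, after which the carrier Slc25a20 takes the acylcarnitine across the inner membrane and Cpt2 turns it back into acyl-CoA for beta-oxidation in the matrix. Fatty acids and their derivatives also bind the PPAR nuclear receptors, which pair with RXR receptors and switch on many genes of fatty acid uptake and oxidation. In the intestine, stem cells respond to a fat-rich diet through such receptors.

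Cpt1a (ENSMUSG00000024900, chr19:3322334-3385733 of GRCm38, plus strand) was the gene with the smallest p-value. It stood at 27.5, 25.9, 27.4 and 19.8 CPM in KO libraries a to d, against 192, 202, 225 and 256 CPM in WT libraries a to d. The lowest WT library thus held several times the level of the highest KO library. The means were 25.1 ± 3.63 CPM in KO and 219 ± 28.1 CPM in WT cells (SD, n = 4 each), an 8.67-fold lower level in KO cells (log2 fold change -3.12 ± 0.14 SE, adjusted p = 2.19e-10, edgeR quasi-likelihood test). Counts over the whole gene do not separate transcripts with the floxed exons from those without, and in sorted pools fewer expressing cells and less RNA per cell cannot be told apart. The muscle-type paralog Cpt1b had 5, 0, 1 and 1 reads in KO libraries and 0, 0, 2 and 0 reads in WT libraries. The brain-type paralog Cpt1c had 5, 3, 0 and 7 reads in KO libraries and 1, 1, 1 and 0 reads in WT libraries. Neither paralog had enough counts to be tested.

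Beside Cpt1a, most of the genes that differed were higher in KO cells, and many of those serve fatty acid oxidation. At an adjusted p under 0.05, edgeR called 55 of the 12409 tested genes (0.443%), 42 higher (0.338%) and 13 lower (0.105%). Among the 42 higher genes, 23 were more than 2-fold higher, and the median log2 fold change was 1.05. Among the 13 lower genes, 8 were more than 2-fold lower, and the median was -1.09. The 11 lists of lipid metabolism genes, PPAR targets among them, held 22 of the 42 higher genes and 3 of the 13 lower genes. These lists overlap and were drawn up with earlier results of these data known. The share of all tested genes that they hold was not computed. All 55 had groups whose libraries did not overlap, as did 3.59% of all tested genes (1.81% with KO higher and 1.77% with KO lower). The 55 were called from these same libraries, so their separation follows largely from the call and is no further support. The positive and negative values were otherwise balanced, with 49.5% of all tested genes above 0 and a median log2 fold change of -0.0022.

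**Figure D1:**
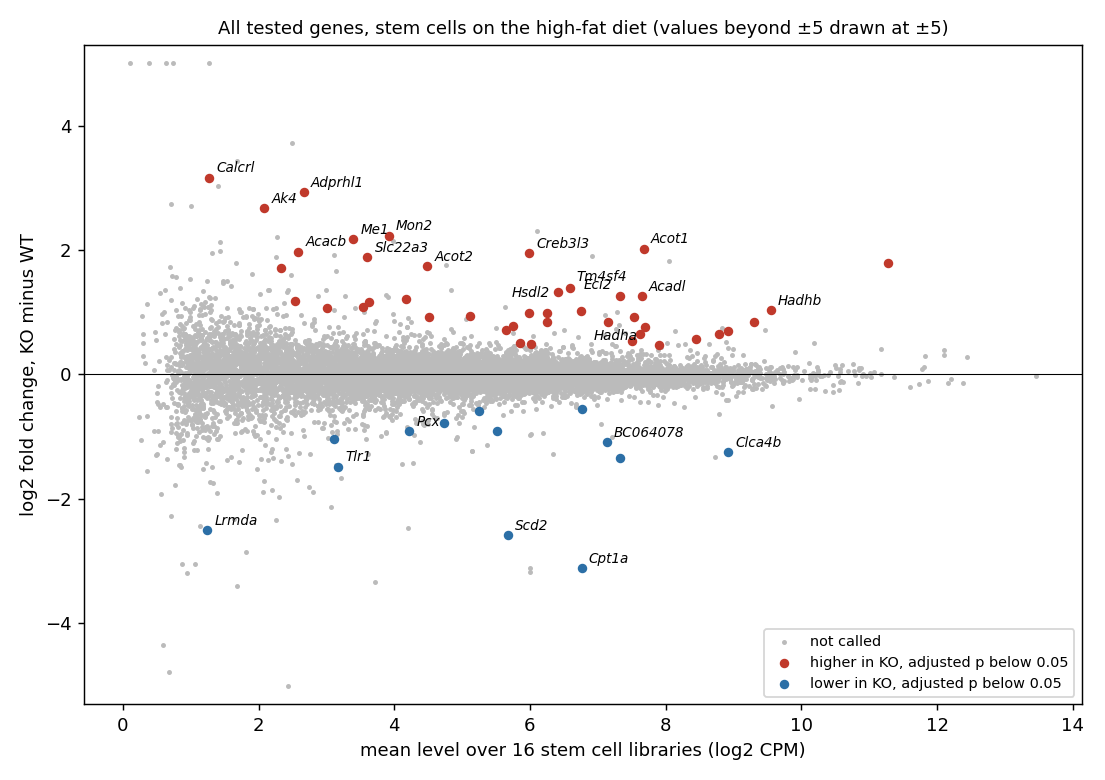
Log2 fold change, KO minus WT, against the mean log2 CPM over the 16 stem cell libraries for each tested gene. Red points are the 42 genes called higher in KO cells and blue points the 13 called lower; Calcrl stands at the top of the red points and Cpt1a at the bottom of the blue ones.

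The count moved with the libraries used. Without 1 library at a time it was 41, 32, 35 and 52 genes without KO libraries a, b, c and d, and 30, 31, 42 and 81 genes without WT libraries a, b, c and d. A set of 25 of the 55 genes was called in all 8 of these fits, among them Cpt1a, Hsdl2, Hadha, Hadhb, Acadl, Eci2, Acaa2, Slc25a20, Creb3l3, Me1, Acacb, Acot2 and Acot4. The run of columns taken as a block gave 54 higher and 21 lower genes, which included 51 of the 55. A fit of the 8 libraries alone called 25 genes, all of them among the 55. The 8 libraries with the column run as a block gave 40 genes, which included 31 of the 55.

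The partners of Cpt1a in the carnitine shuttle went both ways. Slc25a20, the carnitine-acylcarnitine carrier, had 207, 165, 169 and 151 CPM in KO libraries a to d, against 63.9, 68.4, 94.2 and 117 CPM in WT libraries a to d (log2 fold change 1.01 ± 0.16, adjusted p = 0.00514). Every KO library was above every WT library, although WT library d lay closer to the KO libraries than the others did. Slc25a20 was not called in the 8 libraries alone (adjusted p = 0.0671) or in those with the column run as a block (0.255). Cpt2, the inner-membrane transferase, averaged 292 ± 22.5 CPM in KO and 173 ± 40.2 CPM in WT cells (0.76 ± 0.15, adjusted p = 0.0265), a call that was lost in 5 of the 8 fits without 1 library. Crot, which makes carnitine esters of medium-chain acyl groups in peroxisomes, averaged 228 ± 7.25 CPM in KO and 157 ± 24.5 CPM in WT cells (0.54 ± 0.11, adjusted p = 0.0363, lost in 7 of 8 such fits). The mitochondrial carrier Slc25a29, which moves basic amino acids and was first described as an acylcarnitine carrier, was lower. It had 7.28, 5.54, 5.38 and 4.95 CPM in KO libraries a to d, against 15.5, 11.4, 11 and 9.74 CPM in WT libraries a to d (-1.04 ± 0.21, adjusted p = 0.0283, lost in 6 of 8 such fits). The 4 other tested members, the carnitine transporters Slc22a4, Slc22a5 and Slc22a21 and the acetyltransferase Crat, were not called.

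Inside the mitochondrion, 6 genes of fatty acid oxidation, Hadha, Hadhb, Acadl, Eci2, Acaa2 and Acadvl, were higher in KO cells. Of 21 tested genes of mitochondrial beta-oxidation, 6 were higher and none lower, and 17 had a positive log2 fold change (median 0.23). Over all tested genes, 0.338% were called higher and 0.105% lower, and 49.5% had a positive log2 fold change. Hadha and Hadhb encode the alpha and beta subunits of the trifunctional protein, which carries out the last steps of each long-chain oxidation cycle. Hadha had 203, 207, 214 and 220 CPM in KO libraries a to d, against 104, 115, 114 and 137 CPM in WT libraries a to d. Hadhb had 1421, 1111, 1214 and 1170 CPM in KO libraries a to d, against 495, 538, 619 and 744 CPM in WT libraries a to d. For both subunits WT library d was the highest of its group and still well below the lowest KO library. The log2 fold changes were 0.85 ± 0.09 for Hadha (adjusted p = 7.19e-05) and 1.04 ± 0.12 for Hadhb (adjusted p = 0.000139), both called in every alternative fit.

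Hadha and Hadhb lie head to head on chromosome 5 and were raised together, so the stretch between them is shown. Hadha runs leftward from 30155162 and Hadhb rightward from 30155248 (GENCODE M21), which leaves 85 bases of GRCm38 between the genes, chr5:30155163-30155247, plus strand, 69.4% G and C (RefSeq table, GRCm38.p6):
Hadha-Hadhb: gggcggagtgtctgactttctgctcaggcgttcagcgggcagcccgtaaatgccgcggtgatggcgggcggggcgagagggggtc
In RefSeq the start sites are 273 bases apart. A pseudogene, Gm13910, shares sequence with Hadhb, 19.7% of whose 50-base windows also occur in other genes. In transcripts per 1e6 (TPM), a length-corrected level, Hadhb was at 946 ± 39.2 TPM in KO and 466 ± 67.0 TPM in WT cells, and Hadha at 189 ± 22.1 TPM in KO and 103 ± 13.2 TPM in WT cells (SD, n = 4 each), so the beta subunit's mRNA was the more abundant in both genotypes.

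The long-chain acyl-CoA dehydrogenase Acadl, which opens the cycle, had 421, 338, 365 and 331 CPM in KO libraries a to d, against 132, 123, 151 and 203 CPM in WT libraries a to d (1.26 ± 0.17, adjusted p = 0.00134). Eci2, the enoyl-CoA isomerase needed for unsaturated fatty acids, had 328, 282, 284 and 225 CPM in KO libraries a to d, against 94.1, 85.1, 141 and 147 CPM in WT libraries a to d (1.26 ± 0.17, adjusted p = 0.00134). Both genes were more than 2-fold higher, with no overlap, but Eci2 was not called in the 8 libraries with the column run as a block (adjusted p = 0.201). The same fit gave 0.0654 for Acaa2 and 0.0596 for Acadvl. The thiolase Acaa2 averaged 976 ± 152 CPM in KO and 543 ± 124 CPM in WT cells (0.85 ± 0.14, adjusted p = 0.00519). The very-long-chain dehydrogenase Acadvl averaged 738 ± 48.5 CPM in KO and 455 ± 99 CPM in WT cells (0.70 ± 0.13, adjusted p = 0.0124); its adjusted p was 0.0734 without WT library a and 0.0606 without WT library b. The next in the list were not called, namely the dienoyl-CoA reductase Decr1 (0.47 ± 0.11, adjusted p = 0.0759) and the electron transfer genes Etfdh (0.49 ± 0.13, adjusted p = 0.177; 0.0119 with the column run as a block) and Etfb (0.51 ± 0.14, adjusted p = 0.205). Acadm, the medium-chain dehydrogenase, was at 0.04 ± 0.10 and Acads, the short-chain one, at 0.16 ± 0.12, neither called. Summed over the list, KO libraries held 6007 to 7535 CPM and WT libraries 3714 to 5239 CPM.

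**Figure D2:**
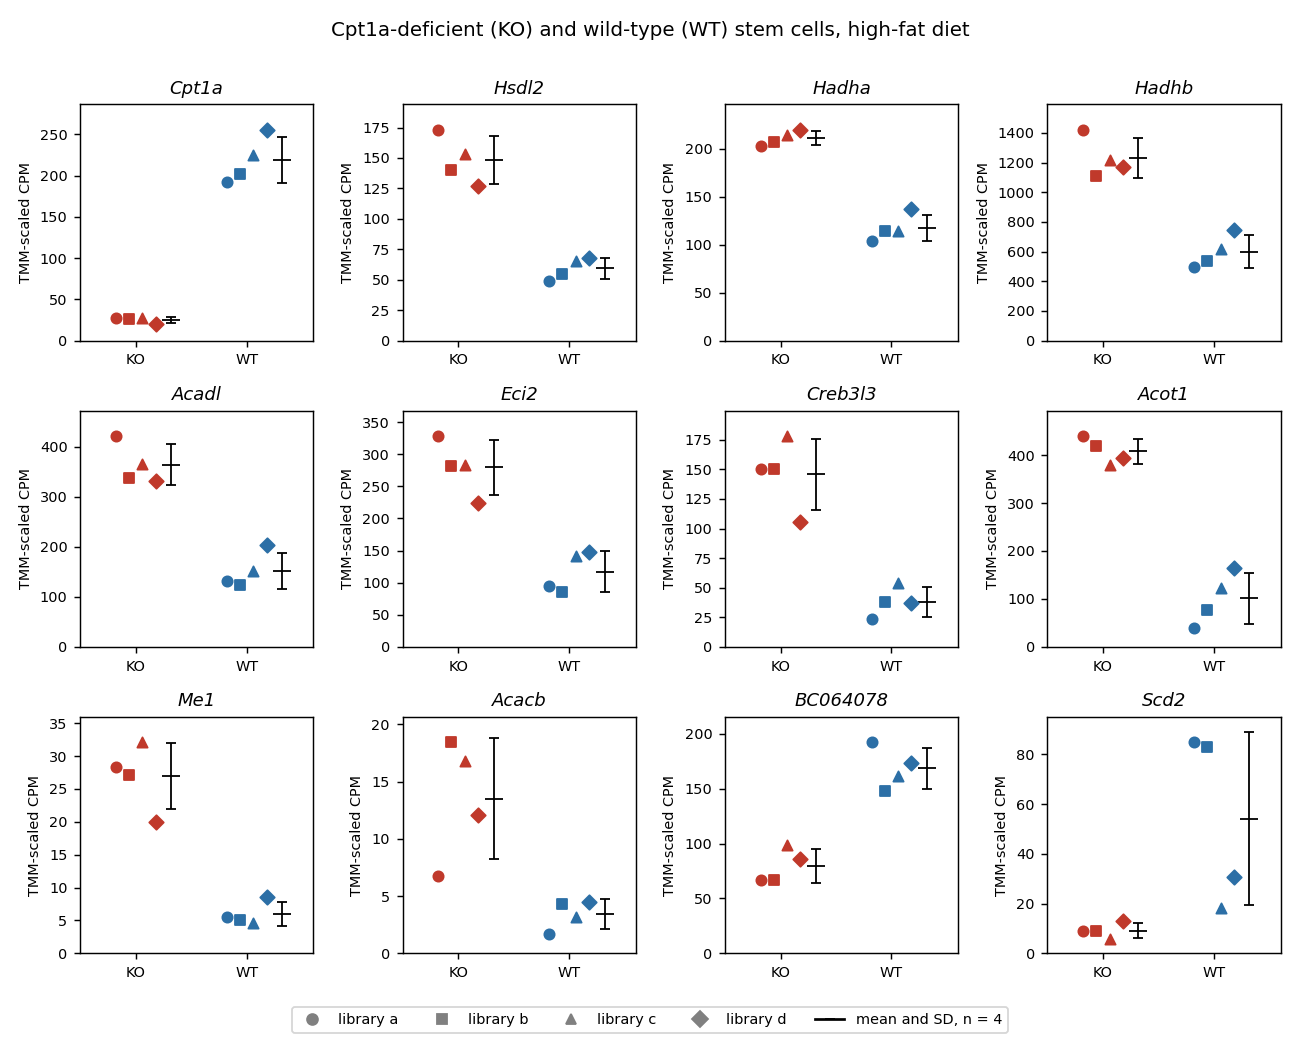
TMM-scaled CPM in each KO (red) and WT (blue) library for 12 genes; marker shapes are libraries a to d and the bar is the mean with its SD (n = 4). In each panel the groups do not overlap; the WT libraries of Acot1 run from 40.4 to 164 CPM and those of Scd2 from 18.1 to 84.8 CPM.

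In peroxisomes, which shorten very long chains, 4 of 24 tested genes were higher, against 0.338% of all tested genes, and none was lower. A positive log2 fold change was found for 20 of the 24 (median 0.23), against 49.5% of all tested genes. Hsdl2, a peroxisomal dehydrogenase-like protein, had the smallest p-value after Cpt1a. It stood at 173, 140, 153 and 127 CPM in KO libraries a to d, against 49.0, 54.4, 65.5 and 67.8 CPM in WT libraries a to d (1.33 ± 0.12, adjusted p = 9.55e-06). The lowest KO library was well clear of the highest WT library. Ech1, a dienoyl-CoA isomerase, averaged 651 ± 111 CPM in KO and 413 ± 81.0 CPM in WT cells (0.66 ± 0.14, adjusted p = 0.0406). Abcd3, which carries acyl groups into peroxisomes, averaged 305 ± 24.2 CPM in KO and 219 ± 22.1 CPM in WT cells (0.48 ± 0.09, adjusted p = 0.0219). The fourth was Crot, given above. Ech1 and Abcd3 each lost the call in 6 of the 8 fits without 1 library, and the list count dropped to 1 in 6 of those fits. Acaa1b, a peroxisomal thiolase, missed the threshold at 13.1 ± 2.76 CPM in KO and 2.89 ± 2.20 CPM in WT cells (2.20 ± 0.48, adjusted p = 0.0553; 0.0213 with the column run as a block), as did Acaa1a (0.44 ± 0.11, adjusted p = 0.093). Outside the list, the peroxisomal membrane protein gene Pxmp4 had 136, 111, 119 and 98.6 CPM in KO libraries a to d, against 46.0, 48.2, 63.7 and 77.0 CPM in WT libraries a to d (0.99 ± 0.14, adjusted p = 0.0017; 0.111 in the 8 libraries with the block).

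The acyl-CoA thioesterases, which release free fatty acid from coenzyme A, had 3 of 10 tested members higher, against 0.338% of all tested genes, and none lower (median 0.23). The 3 lie side by side on chromosome 12, Acot2 at 83987861 to 83993873, Acot1 at 84009490 to 84018371 and Acot4 at 84038379 to 84048601. The peroxisomal Acot4 had 18.4, 17.3, 15.3 and 17.9 CPM in KO libraries a to d, against 5.87, 8.22, 9.39 and 9.37 CPM in WT libraries a to d (1.08 ± 0.17, adjusted p = 0.00514). The mitochondrial Acot2 averaged 40.3 ± 6.41 CPM in KO and 12.4 ± 6.66 CPM in WT cells (1.74 ± 0.29, adjusted p = 0.00834; 0.162 in the 8 libraries with the block). The cytosolic Acot1 was the most abundant, at 440, 419, 380 and 394 CPM in KO libraries and 40.4, 76.1, 124 and 164 CPM in WT libraries (2.02 ± 0.34, adjusted p = 0.0166). WT library d held several times the Acot1 of WT library a, and Acot1 was not called with the column run as a block (adjusted p = 0.0593) or without KO library a (0.0575), KO library b (0.0608) or WT library b (0.0907). Nor was Acot1 called in the 8 libraries alone (adjusted p = 0.11) or in those with the block (0.36). Acot1 and Acot2 share sequence: 27.7% of the 50-base windows of Acot2 and 19.2% of those of Acot1 also occur in other genes, so the division of reads between them is uncertain.

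Of the genes that bring fatty acids in and activate them, 1 of 19 was called, against 0.443% of all tested genes. Acsl3, an acyl-CoA synthetase of the endoplasmic reticulum and lipid droplets, had 263, 271, 253 and 249 CPM in KO libraries a to d, against 162, 141, 176 and 184 CPM in WT libraries a to d (0.64 ± 0.08, adjusted p = 0.0012). Both groups were tight, although Acsl3 was not called with limma on log2 TPM (adjusted p = 0.055). The fatty acid binding protein gene Fabp1 was far from tight, with 1055, 552, 742 and 655 CPM in KO libraries a to d, against 194, 133, 190 and 338 CPM in WT libraries a to d. Its groups did not overlap, but its adjusted p was 0.0607 (1.82 ± 0.37). The fatty acid transporter Cd36 was not called (0.05 ± 0.73).

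Lipolysis genes were likewise mostly not called, with 1 of 23 higher, against 0.338% of all tested genes. Lipe, the hormone-sensitive lipase, had 9.65, 11.4, 8.07 and 13.997 CPM in KO libraries a to d, against 5.3, 4.58, 6.42 and 4.497 CPM in WT libraries a to d (1.06 ± 0.22, adjusted p = 0.0422). This call was lost in 7 of 8 fits without 1 library and with the column run as a block (adjusted p = 0.0548). Mgll, the monoglyceride lipase, averaged 41.1 ± 10.7 CPM in KO and 9.33 ± 6.09 CPM in WT cells (2.15 ± 0.48, adjusted p = 0.0869), and the lipid droplet coat gene Plin2 was at 0.31 ± 0.09 (adjusted p = 0.341). Outside the list, Ddhd2, a lipase that acts on triglycerides and phospholipids, averaged 71.9 ± 10.1 CPM in KO and 43.9 ± 5.22 CPM in WT cells (0.71 ± 0.11, adjusted p = 0.00382). Its adjusted p was 0.0733 in the 8 libraries alone.

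In fatty acid synthesis, 2 of 25 tested genes were higher and 1 was lower, against 0.338% and 0.105% of all tested genes. The list median was -0.04. Me1, the cytosolic malic enzyme that supplies NADPH, had 28.4, 27.2, 32.1 and 20.03 CPM in KO libraries a to d, against 5.59, 5.12, 4.58 and 8.62 CPM in WT libraries a to d. That was 4.5-fold higher in KO cells (2.17 ± 0.30, adjusted p = 0.00134), although 22.9% of the 50-base windows of Me1 also occur in other genes. Acacb is the acetyl-CoA carboxylase at the mitochondrial surface, whose product malonyl-CoA inhibits Cpt1 enzymes. It averaged 13.5 ± 5.26 CPM in KO and 3.43 ± 1.28 CPM in WT cells (1.97 ± 0.32, adjusted p = 0.00519), with KO library a, at 6.74 CPM, nearest to the WT libraries. Acacb was not called in the 8 libraries alone (adjusted p = 0.0733) or with limma on log2 TPM (0.557).

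The lower gene of the list was Scd2, a stearoyl-CoA desaturase. It had 8.92, 8.76, 5.83 and 12.9 CPM in KO libraries a to d, against 84.8, 83.1, 18.1 and 30.7 CPM in WT libraries a to d. The WT libraries a and b, which held Xist, were far above the WT libraries c and d, which held Ddx3y, and no such division appeared in the KO libraries. The log2 fold change was -2.59 ± 0.48 (adjusted p = 0.0351), and with the Xist level as a covariate the adjusted p was 0.0149. The call was lost in 6 of the 8 fits without 1 library and with the column run as a block (adjusted p = 0.0509). The elongase gene Elovl5 was not called (-0.39 ± 0.09, adjusted p = 0.0869; 0.0334 with the column run as a block).

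Regulators of lipid genes were among the higher genes. Creb3l3, a membrane-bound transcription factor of lipid metabolism in liver and intestine and the 1 called of 14 chylomicron and lipoprotein genes, had 150, 150, 178 and 106 CPM in KO libraries a to d, against 23.4, 38.1, 53.8 and 36.7 CPM in WT libraries a to d (1.95 ± 0.27, adjusted p = 0.00259). KO library d was the lowest of its group and still above every WT library. Klf11, a Krüppel-like repressor and activator, averaged 85.0 ± 16.4 CPM in KO and 43.2 ± 11.7 CPM in WT cells (0.98 ± 0.18, adjusted p = 0.0165), and its adjusted p was 0.0669 without KO library b. The PPAR receptors themselves were not called. Ppara had 24.4, 17.3, 18.8 and 13.8 CPM in KO libraries a to d, against 15.2, 18.5, 35.5 and 14.4 CPM in WT libraries a to d (-0.15 ± 0.26). Pparg had 15.8, 12, 8.07 and 7.75 CPM in KO libraries a to d, against 11.6, 6.73, 7.1 and 14.4 CPM in WT libraries a to d (0.14 ± 0.27). Ppard was near the limit of detection, with 1.82, 1.25, 0.673 and 0.861 CPM in KO libraries a to d, against 3.01, 1.62, 3.67 and 1.69 CPM in WT libraries a to d (-1.05 ± 0.41, adjusted p = 0.604). For all 3 receptors the libraries of the groups overlapped. Among 21 tested receptors and partners none was called, and 2 had an unadjusted p under 0.05.

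Genes known as PPAR targets were the list with the most calls. Of 56 tested members, 19 were higher, and 1, Cpt1a itself, was lower, against 0.338% and 0.105% of all tested genes. The number higher was between 9, in the 8 libraries alone, and 32, with DESeq2. Positive log2 fold changes were found for 53 of the 56, against 49.5% of all tested genes. Every KO library was above every WT library for 30 of the 56, against 1.81% of all tested genes. The list median was 0.63, against -0.0022 for all genes, and the list overlaps those of mitochondrial and peroxisomal oxidation described above. Summed, its members held 18344 to 21667 CPM in KO and 8825 to 12797 CPM in WT libraries. The 3 members below 0 were Cpt1a, Acsl1 (-0.19 ± 0.13) and the epoxide hydrolase gene Ephx2 (-0.10 ± 0.18).

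Several classical members of the list had large estimates without passing the test, and their WT libraries lay far apart. Pdk4, the kinase that shuts off pyruvate dehydrogenase, had 131, 161, 73.1 and 143 CPM in KO libraries a to d, against 3.15, 13.5, 34.1 and 54.7 CPM in WT libraries a to d (2.31 ± 0.61, adjusted p = 0.253). Angptl4, a secreted inhibitor of lipoprotein lipase, had 193, 199, 135 and 232 CPM in KO libraries a to d, against 11.2, 30.2, 77.5 and 88.3 CPM in WT libraries a to d (1.90 ± 0.60, adjusted p = 0.452). For both genes WT library a was the lowest and WT library d the highest, and every KO library was above every WT library. The same libraries marked the range for the called genes: among the 42 higher genes, WT library d was the highest WT library for 26 and WT library a the lowest for 24. KO library d was the lowest KO library for 21 of the 42.

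**Figure D3:**
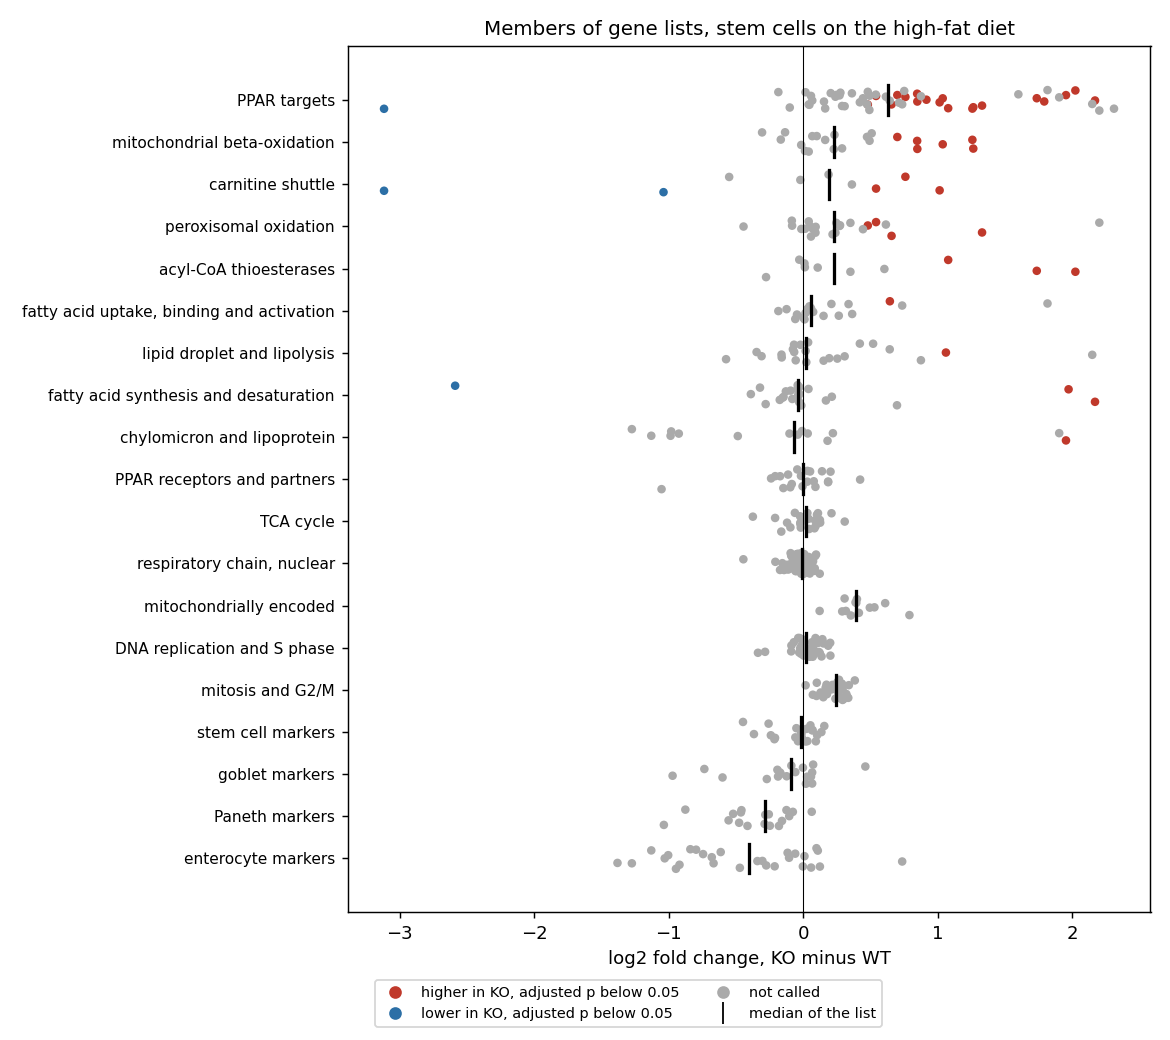
Log2 fold change, KO minus WT, of each tested member of 19 gene lists; red and blue mark members called higher or lower and the black bar is the list median. PPAR targets, at a median of 0.63, lie to the right of 0, with Cpt1a the blue point at the far left, while nuclear respiratory chain genes gather around a median of -0.01.

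PPAR-RXR pairs bind a direct repeat of AGGTCA with a single base between the copies, and promoters were searched for that letter pattern: AGGTCA, any single base, AGGTCA. The search allowed 2 mismatches in its 12 fixed letters on either strand, in the 300 bases from 250 before to 50 after each RefSeq start site. Windows were matched for 45 of the 55 genes by symbol. The pattern occurred for 4 of 35 higher genes (11.4%) and 1 of 10 lower genes, against 356 of 9254 tested genes (3.85%). The 5 matches are printed 5′ to 3′ along the gene's strand with 8 flanking bases, the match in capitals:
Ak4: ggtctgacTGACCTCTGACCCcagagggc
Creb3l3: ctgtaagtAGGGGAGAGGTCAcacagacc
Slc25a20: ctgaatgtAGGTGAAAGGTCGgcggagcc
Acot4: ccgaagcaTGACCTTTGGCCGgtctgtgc
Clca4b: tctgtacaTGAACATTGACCTttaaacag
In Ak4 the match had 1 mismatch, on the reverse strand and beginning 135 bases before 1 of its RefSeq start sites (window chr4:101419453-101419752). The windows of the other RefSeq start sites of Ak4, which lie upstream, held no match. The other 4 matches had 2 mismatches each. Creb3l3 has a second RefSeq window, at the annotated start of the gene and without a match. Its match lies in the window chr10:81092542-81092841, inside the gene. Clca4b was lower in KO cells and the other 4 genes were higher. The matches are letters in a window and not measured binding.

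Of the 42 higher genes, 20 were in none of the lists. The organic cation transporter gene Slc22a3 had 27.0, 32.4, 34.1 and 14.9 CPM in KO libraries a to d, against 6.30, 7.68, 9.39 and 6.18 CPM in WT libraries a to d (1.88 ± 0.26, adjusted p = 0.00134). The membrane protein gene Tm4sf4 had 199, 187, 221 and 154 CPM in KO libraries a to d, against 55.7, 73.1, 97.2 and 65.6 CPM in WT libraries a to d (1.39 ± 0.19, adjusted p = 0.00134). In both, KO library d was the lowest KO library and clear of the WT libraries. Iba57, which helps to assemble mitochondrial iron-sulfur proteins, had 43.0, 51.7, 48.4 and 45.2 CPM in KO libraries a to d, against 22.6, 21.0, 26.1 and 28.5 CPM in WT libraries a to d (0.94 ± 0.14, adjusted p = 0.0017). Ak4, an adenylate kinase of the mitochondrial matrix, averaged 10.2 ± 3.43 CPM in KO and 1.54 ± 0.466 CPM in WT cells (2.67 ± 0.45, adjusted p = 0.00786). These 4 were called in every alternative fit. Retsat, retinol saturase, was on the lists and was the 1 called of 21 genes of Cyp4 hydroxylases and retinoid handling. It had 358, 269, 327 and 279 CPM in KO libraries a to d, against 140.1, 131, 165 and 218 CPM in WT libraries a to d (0.92 ± 0.15, adjusted p = 0.00519; 0.0758 in the 8 libraries with the block).

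The largest folds among the higher genes belonged to genes of low level. Calcrl, the receptor of adrenomedullin and calcitonin gene-related peptide, averaged 5.39 ± 2.96 CPM in KO and 0.599 ± 0.211 CPM in WT cells (3.16 ± 0.59, adjusted p = 0.0162). Adprhl1, of the ADP-ribosylhydrolase family, averaged 17.5 ± 3.06 CPM in KO and 2.35 ± 1.99 CPM in WT cells (2.93 ± 0.55, adjusted p = 0.0219). Calcrl lost its call in 3 of the 8 fits without 1 library and Adprhl1 in 6. Mon2, of endosome-to-Golgi traffic, averaged 27.1 ± 6.90 CPM in KO and 5.75 ± 0.725 CPM in WT cells (2.23 ± 0.45, adjusted p = 0.0465). Mon2, Efcab7 and the kinesin gene Kifc1 lost their call in all 8 such fits. Among the others are genes that act at chromosomes or the spindle: Hjurp, which loads the centromere histone (0.57 ± 0.11, adjusted p = 0.0219), and Kifc1 (1.16 ± 0.25, adjusted p = 0.0484); of the 50-base windows of Kifc1, 39.7% also occur in other genes. Vwa8, a mitochondrial ATPase-domain protein, averaged 118 ± 12.1 CPM in KO and 65.8 ± 3.84 CPM in WT cells (0.84 ± 0.15, adjusted p = 0.011). Its adjusted p was 0.0649 without WT library a and 0.112 with limma on log2 TPM. Nceh1, a cholesterol ester hydrolase, averaged 73.9 ± 15.8 CPM in KO and 43.3 ± 7.24 CPM in WT cells (0.78 ± 0.15, adjusted p = 0.0219). Slit2, a secreted guidance factor, averaged 28.5 ± 6.42 CPM in KO and 12.3 ± 3.81 CPM in WT cells (1.21 ± 0.25, adjusted p = 0.039). The remaining higher genes outside the lists were Rab30 (1.71 ± 0.33), the water channel Aqp11 (0.50 ± 0.10), the monocarboxylate carrier family gene Slc16a13 (0.49 ± 0.10) and Efcab7 (1.19 ± 0.25), with Slc26a3 given further on. Without 1 library at a time, the call was lost in 7 of 8 fits for Slc16a13, in 6 for Slit2 and Aqp11, in 5 for Hjurp, Rab30 and Slc26a3, and in 4 for Nceh1.

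Among the 13 lower genes, Cpt1a, Scd2 and Slc25a29 belong to lipid lists. BC064078 is annotated as a transcribed unprocessed pseudogene, and no role is given for it here. It had 66.6, 66.7, 98.7 and 85.9 CPM in KO libraries a to d, against 192, 148, 161 and 173 CPM in WT libraries a to d (-1.09 ± 0.15, adjusted p = 0.00134). Of the lower genes, Cpt1a and BC064078 were called in every alternative fit. Rnf145, a ubiquitin ligase of the endoplasmic reticulum that acts in sterol control, had 79.0, 92.5, 81.9 and 78.2 CPM in KO libraries a to d, against 128, 132, 114 and 110 CPM in WT libraries a to d (-0.55 ± 0.09, adjusted p = 0.00644). The change was small and the groups tight. Rnf145 was not called in the 8 libraries alone (adjusted p = 0.0657) or with limma on log2 TPM (0.113). Pcx, pyruvate carboxylase, the 1 called of 19 genes of pyruvate entry, which feeds oxaloacetate to the TCA cycle, had 9.11, 14.1, 12.8 and 13.4 CPM in KO libraries a to d, against 24.5, 25.6, 26.8 and 15.9 CPM in WT libraries a to d (-0.91 ± 0.19, adjusted p = 0.0363). WT library d lay close to the KO libraries, and the call was lost in 7 of 8 fits without 1 library.

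In the list of epithelial defence genes 2 of 13 tested members were called, both lower, against 0.105% of all tested genes called lower. The list went both ways, with 5 positive and 8 negative members, a median of -0.14 and a maximum of 1.57. Tlr1, a receptor of bacterial lipopeptides, had 4.37, 3.76, 4.04 and 3.88 CPM in KO libraries a to d, against 16.3, 7.81, 11.2 and 9.56 CPM in WT libraries a to d (-1.48 ± 0.27, adjusted p = 0.0127). The KO libraries were nearly equal and the WT libraries spread, and the adjusted p was 0.0608 without KO library b and 0.073 without WT library a. Clca4b, of the calcium-activated chloride channel regulators, had 264, 208, 315 and 216 CPM in KO libraries a to d, against 551, 526, 625 and 682 CPM in WT libraries a to d (-1.25 ± 0.21, adjusted p = 0.00846; 0.0502 without KO library b). Entpd4 and Entpd4b, near-identical nucleotide diphosphohydrolase genes, were lower by 0.90 ± 0.16 and 0.78 ± 0.14 on the log2 scale (adjusted p = 0.00834 and 0.0124). Entpd4 had 40.1, 25.2, 23.3 and 28.4 CPM in KO libraries a to d, against 56.9, 59.8, 49.3 and 53.2 CPM in WT libraries a to d. Entpd4b had 20.2, 15.2, 16.4 and 19.8 CPM in KO libraries a to d, against 31.2, 34.1, 30.2 and 27.4 CPM in WT libraries a to d. All of their 50-base windows are shared, so the 2 calls may be 1 signal. Clca4b and Tlr1 also share sequence with paralogs, in 24.8% and 15.4% of their windows. Tmem254c shares all of its windows with another gene too (-1.34 ± 0.27, adjusted p = 0.0479; 0.0893 with the column run as a block). The last of the lower genes were Lrmda, at 0.522 ± 0.498 CPM in KO and 3.19 ± 1.21 CPM in WT cells (-2.51 ± 0.53, adjusted p = 0.0431), and Tprn, at 30.3 ± 3.04 CPM in KO and 45.7 ± 5.02 CPM in WT cells (-0.59 ± 0.12, adjusted p = 0.0406). Tmem254c lost its call in 7 of the 8 fits without 1 library, and Lrmda and Tprn each in 6.

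Pcx is also the nearest called gene to Cpt1a on chromosome 19, with its start 1.188 Mb away. Within 5 Mb of the start of Cpt1a 132 other genes were tested, of which Pcx was the 1 called. Of these, 12 had an unadjusted p under 0.05 (9.09%, against 6.38% of all tested genes), and the median log2 fold change was -0.06.

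The machinery downstream of fatty acid oxidation was not called. None of 28 tested TCA cycle genes passed (median 0.02), and none of 73 nuclear genes of the respiratory chain (median -0.01). The 13 tested genes of the mitochondrial genome were all positive, at a median of 0.39, and none was called. Their sum was 17206 to 28119 CPM in KO and 11277 to 19704 CPM in WT libraries, which overlapped. KO library a, at 28119 CPM, lay above the rest and WT library b, at 11277 CPM, below. Glucose use genes were not called either, although the hexokinase gene Hk2 came near at 40.1 ± 8.11 CPM in KO and 60.0 ± 7.77 CPM in WT cells (-0.58 ± 0.14, adjusted p = 0.0825), and passed with the column run as a block (0.0428). Oxct1, the transferase with which cells burn ketone bodies, was at 73.0 ± 14.4 CPM in KO and 104 ± 9.19 CPM in WT cells (-0.50 ± 0.12, adjusted p = 0.0869), and at an adjusted p of 0.0213 with the column run as a block.

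Genes of mitosis leaned upward as a list without any member passing. All 33 tested members had a positive log2 fold change, from 0.02 to 0.38 with a median of 0.24, and the smallest unadjusted p values belonged to the centromere motor gene Cenpe (0.34 ± 0.15, adjusted p = 0.711) and the cyclin gene Ccna2 (0.32 ± 0.14, adjusted p = 0.711). The summed level was 4901, 5092, 4923 and 5766 CPM in KO libraries a to d, against 3853, 3718, 4619 and 5488 CPM in WT libraries a to d. KO exceeded WT in each of the 4 runs of columns, and the groups overlapped, with WT library d above 3 of the KO libraries. Genes of DNA replication showed no such lean, with 23 of 39 positive and a median of 0.02. Of all tested genes, 49.5% were positive. On the control diet 7 of the 33 mitosis genes were positive.

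**Figure D4:**
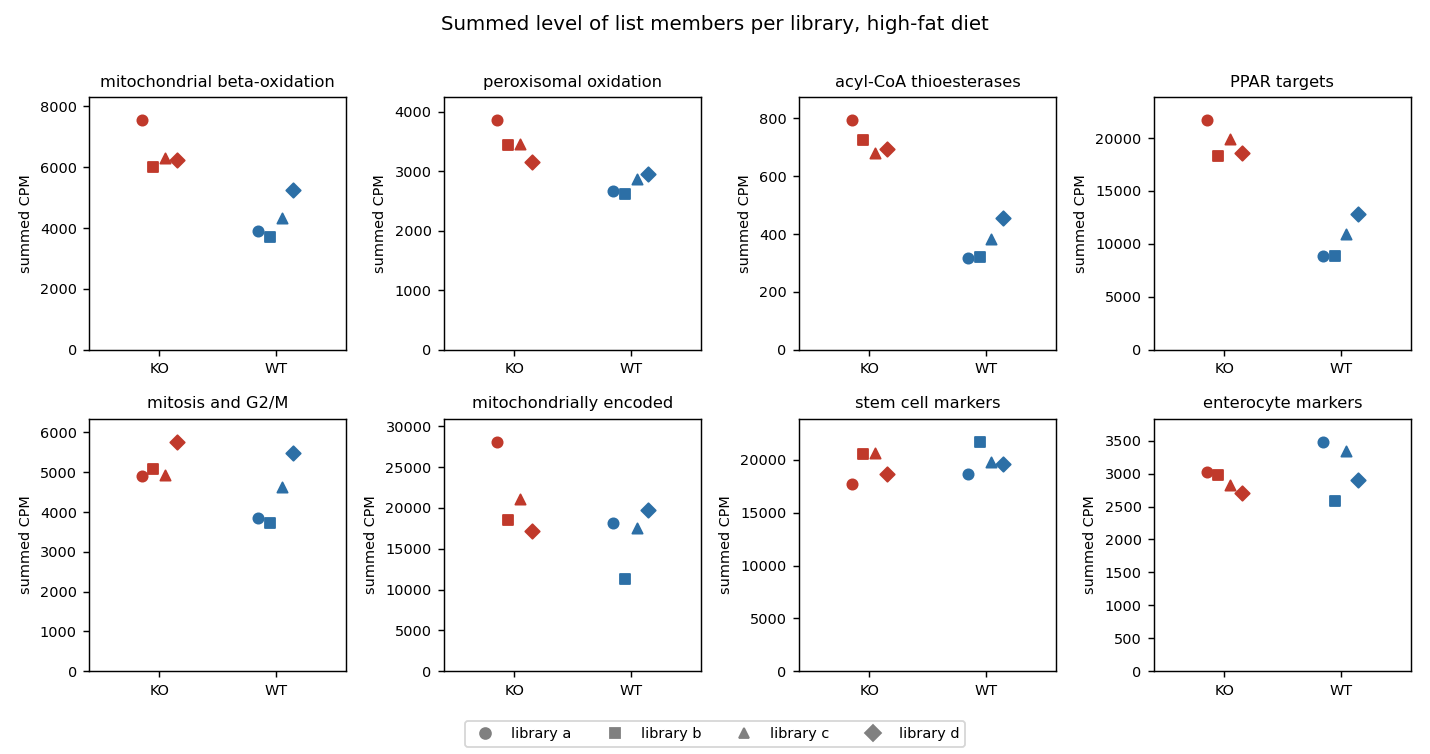
Summed TMM-scaled CPM of the members, tested or not, of 8 gene lists in each KO (red) and WT (blue) library. The 4 lists in the upper row are mitochondrial beta-oxidation, peroxisomal oxidation, acyl-CoA thioesterases and PPAR targets. Their groups do not overlap, for example in the PPAR targets (18344 to 21667 CPM in KO, 8825 to 12797 CPM in WT). In the 4 lists of the lower row the groups overlap.

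Markers of cell identity were not called. None of 25 stem cell markers passed (median -0.01), the smallest p being that of Gkn3 (-0.37 ± 0.12, adjusted p = 0.415). Nor did any of 19 goblet (median -0.09), 18 Paneth (-0.28), 9 enteroendocrine (-0.40), 5 tuft (-0.24) or 28 enterocyte markers (-0.41). Enterocyte markers were mostly negative, 22 of 28, among them the meprin gene Mep1b (-0.92 ± 0.34, adjusted p = 0.558) and the retinol binding protein gene Rbp2 (-0.95 ± 0.43, adjusted p = 0.764), while the fatty acid binding protein Fabp2 was at 0.74 ± 0.24 (adjusted p = 0.466). Their sum was 2713 to 3032 CPM in KO and 2583 to 3485 CPM in WT libraries. The part of this difference in the other results was not tested. The 7 tested MHC class II genes were spread about a median of -0.02, with sums of 886 to 1514 CPM in KO and 569 to 2071 CPM in WT libraries. No gene was called in the lists of sterol synthesis (median -0.04), antioxidants (-0.03), the integrated stress response (-0.09), p53 targets (-0.19), the unfolded protein response (-0.08), Wnt targets (-0.00), Notch (0.02), MHC class I and interferon (-0.17) or fetal-like genes (-0.26).

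The comparison was set beside the same genotypes on the control diet, which uses 8 other libraries. There 30 of the 12409 genes were called (0.242%). Of the 42 genes higher on the high-fat diet, 42 were also above 0 on the control diet and 21 were called; of the 13 lower genes, 13 were below 0 and 2, Cpt1a and BC064078, were called. Above 0 on the control diet were 6183 of all 12409 genes. No gene passed the test of the difference between the diets, in edgeR (444 at an unadjusted p under 0.05) or in DESeq2 (418). The 3 genes with the smallest p were S100g, an intestinal calcium-binding protein (log2 fold change -0.67 ± 0.29 on the high-fat and 1.27 ± 0.30 on the control diet), Bsdc1 (0.10 ± 0.10 and -0.58 ± 0.10) and Gm12350 (0.18 ± 0.57 and 4.61 ± 0.80).

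An unadjusted p under 0.05 for this difference was found for 14 of the 55 genes, against 3.58% of all tested genes (edgeR). The 55 were chosen for their difference on the high-fat diet, which is also part of this test. The count of 14, like a smaller estimate on the other diet, is therefore a description. Creb3l3 had a smaller estimated genotype effect on the high-fat than on the control diet (unadjusted p = 0.0129, edgeR), a difference that did not pass after adjustment. Creb3l3 differed by 1.95 ± 0.27 on the high-fat and by 3.12 ± 0.32 on the control diet, where the means were 61.7 ± 11.9 CPM in KO and 7.19 ± 2.997 CPM in WT cells. For 12 others the estimate was larger on the high-fat diet, likewise without passing after adjustment: Acsl3, Me1, Iba57, Klf11, Rab30, Lipe, Slc26a3 and Kifc1 among the higher genes and Rnf145, Tlr1, Slc25a29 and Tprn among the lower ones. Me1, for example, differed by 2.17 ± 0.30 on the high-fat and by 0.79 ± 0.35 on the control diet, where the means were 5.17 ± 2.88 CPM in KO and 2.98 ± 1.16 CPM in WT cells. Rnf145 differed by -0.55 ± 0.09 on the high-fat and by -0.10 ± 0.09 on the control diet.

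**Figure D5:**
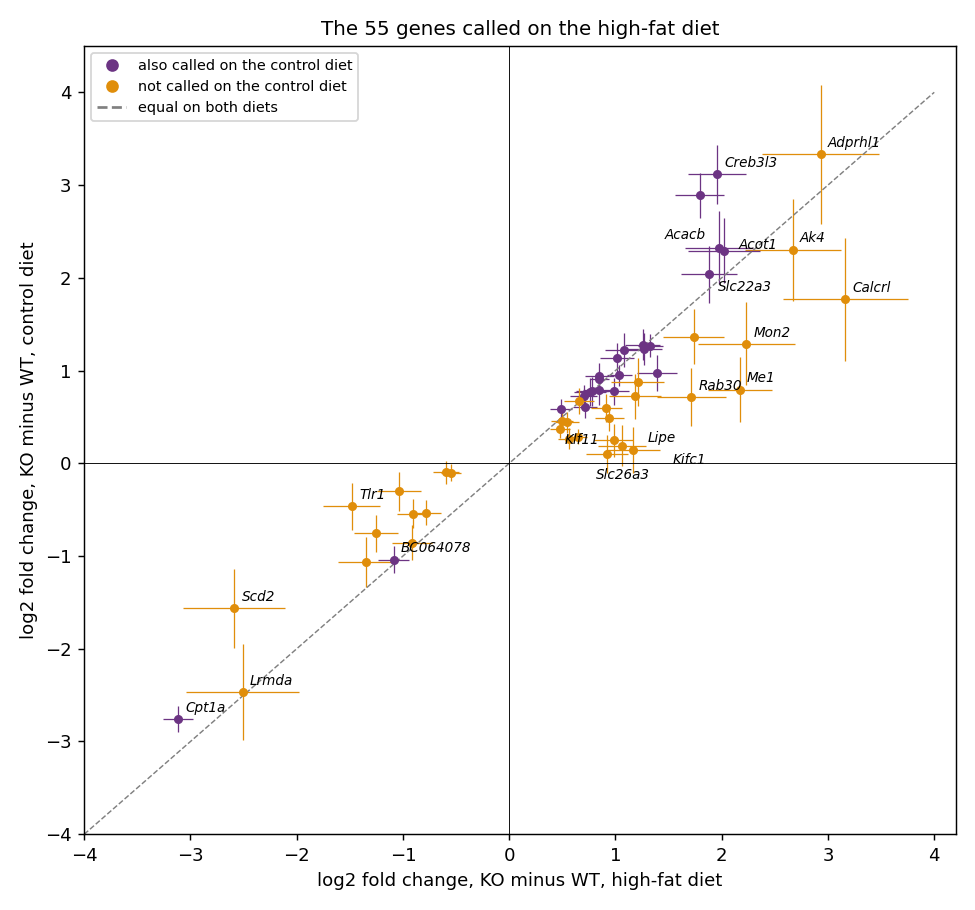
Log2 fold change, KO minus WT, of the 55 genes on the high-fat diet (horizontal) and on the control diet (vertical), with standard errors. Purple genes were called on both diets; Creb3l3 lies above the dashed line of equal effect and Me1 below it.

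Progenitors, the Lgr5-eGFP-low cells, gave a further comparison on the high-fat diet in 8 other libraries, with 104 of 13088 genes called (0.795%) in a fit of all 32 libraries. Stem cell and progenitor libraries carry the same replicate numbers in their labels, and their columns alternate, so they may come from the same mice. This fit did not pair them, and agreement between the populations may not be independent. The share of all genes above 0 in progenitors was not computed. Of the 42 higher genes, 41 were above 0 in progenitors and 34 were called, and of the 13 lower genes 13 were below 0 and 8 were called. The exception was Kifc1, at 1.16 ± 0.25 in stem cells and -0.24 ± 0.30 in progenitors. Slc26a3, an intestinal anion exchanger, differed by 0.92 ± 0.20 in stem cells and by 0.10 ± 0.25 in progenitors, and Iba57 by 0.94 ± 0.14 in stem cells and by 0.44 ± 0.15 in progenitors. These 3, with Tlr1 and Calcrl, were the 5 of the 55 with an unadjusted p under 0.05 for the difference between the populations. In the same edgeR test 2.53% of all tested genes had such a p. No gene passed that test, in edgeR (331 at an unadjusted p under 0.05) or in DESeq2 (314). Its smallest p values belonged to Ahi1 (-0.76 ± 0.34 in stem cells and 1.35 ± 0.35 in progenitors), Zfp747 (0.15 ± 0.13 and -0.48 ± 0.11) and Tgif2 (-0.33 ± 0.21 and 0.98 ± 0.25).

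At the threshold, Kifc1 was the last gene called, at an adjusted p of 0.0484, and Elmod3 the first not called, at 0.0504 (0.51 ± 0.11). Next came Ihh, the hedgehog ligand of the intestinal epithelium (-0.79 ± 0.17, adjusted p = 0.0517), Acaa1b, Fabp1, Decr1 and the carboxypeptidase gene Scpep1 (0.38 ± 0.09, adjusted p = 0.0792). With the column run as a block, Elmod3 (0.0369), Ihh (0.0405) and Scpep1 (0.0234) passed as well. Of the 55 genes, 11 shared over 10% of their 50-base windows with other genes and 37 under 1%. Coding genes also overlap Hadha, Acsl3, Slc22a3, Acot4, Entpd4, Acadvl, Pcx and Efcab7, and without a stated strand setting reads of overlapping genes cannot be told apart.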

How the data were processed

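Per the submitters' processing notes, the tools included STAR 2.5.3a, RSEM 1.3.0 and SAMtools 1.3 with mm10; annotation and strand setting are not given in the sources used here. The authors deposited expected counts per gene, which were rounded, and log2 values of TPM plus 1 for the same libraries. TPM in the text was taken back from the log2 values.

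Genes were tested with edgeR 4.0.16 (R 4.3.3): TMM scaling, filterByExpr with a minimum count of 10, a robust quasi-likelihood fit of the 16 stem cell libraries in 4 groups, and Benjamini-Hochberg adjustment at 0.05. Differences between populations came from a fit of 32 libraries. Standard errors were taken as |log2 fold change| divided by the root of the F statistic. DESeq2 1.42.0 and limma 3.58.1 were alternatives, and the tests were tested on simulated data. IDs that have no symbol took up 0.0677% of counts.

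Same-run KO and WT libraries deviated together from their group means (r = 0.267, 0.287, 0.244 and 0.196), which led to the block by column run. In both genotypes libraries a and b held Xist and libraries c and d Ddx3y, so the block also takes up this division. The source of the shared deviation was not tested. Positions are from GENCODE M21 and promoters from RefSeq. The members, gene lists and comparisons were chosen with earlier results of these data known. Some of the genes are not reported here. Apart from these, values per library are given for Cpt1a, the 12 higher and 8 lower genes with the smallest adjusted p, the leading gene of each list, and 8 genes of fat use or stemness; uncalled members of lists with called genes are examples chosen after their values were seen.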

Additional observations from a re-analysis of the deposited data

How the results depend on the processing

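No paired analysis was possible because the columns carry no replicate number to pair libraries as labelled; pairing by run of columns, as a block, was fitted instead. The 55 calls became 106 with DESeq2 (74 higher, 32 lower), 25 with the 8 libraries alone (21 higher, 4 lower), and 30 to 81 without 1 library (23 to 54 higher, 6 to 27 lower). Lower calls numbered 21 without a filter on low counts, 21 with the column run as a block and 8 with limma on log2 TPM. PPAR targets called higher were 32 with DESeq2, 9 with the 8 libraries alone and 10 with those and the block. Mitochondrial beta-oxidation had 3 with the 8 libraries and the block. Peroxisomal genes had 1 with the 8 libraries, 2 with those and the block, and 1 to 5 without 1 library. The cause of these differences in count, the smaller number of libraries included, was not tested. No direction reversed among the 55 genes: of their 878 values under the alternatives, 637 kept the call and 241 lost it. Among uncalled genes the sign turned without 1 library for Ppara (0.21 without WT library c), Pparg and Lgr5. Called under every alternative were 12 genes: Cpt1a, Hsdl2, Hadha, Hadhb, BC064078, Acadl, Slc22a3, Me1, Tm4sf4, Iba57, Creb3l3 and Ak4. The count of genes that differed between diets or populations stayed at 0 in edgeR and DESeq2. With 4 libraries a group, a gene that was not called is not shown to be unchanged.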
